A study of Mus musculus with 8 samples.

Results

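Chemokine ligands are the secreted proteins that draw leukocytes along a gradient, and neutrophils both follow them and make them. The 10 CC and CXC ligand genes described here are Ccl3, Ccl4, Ccl5, Ccl6, Ccl9, Cxcl1, Cxcl2, Cxcl3, Cxcl9 and Cxcl16. They were taken as the rows of the count files whose Ensembl identifier maps to these symbols in GENCODE M21, and all 10 were found among the 55414 genes listed. Their RNA was measured in neutrophils sorted from the spleen of 4 WT and 4 Cxcr2-/- mice, 1 RNAseq library per mouse. All mice were on the FVB background and 10 weeks old and were kept free of specific and opportunistic pathogens. Cxcr2 was deleted in the whole animal, so neutrophils and every other cell of the Cxcr2-/- spleen lacked the receptor. Cells were first enriched for CD11b with beads and then sorted as CD45+ CD11b+ Ly6G+ and F4/80-.

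Chemokines with a CC or a CXC arrangement of their first cysteines bind G protein-coupled receptors on leukocytes. Cxcl1, Cxcl2 and Cxcl3 are the ELR-type ligands of CXCR2, which draw neutrophils into inflamed tissue, and neutrophils that meet a microbe release Cxcl2 themselves and so call in more neutrophils. Ccl3, Ccl4 and Ccl5 draw monocytes and T cells, Ccl6 and Ccl9 are CCR1 ligands found in rodents, Cxcl9 is an interferon-gamma-induced ligand of CXCR3, and Cxcl16 is a membrane-bound ligand of CXCR6 that proteases shed. Transcription of many of these genes is switched on through NF-kB, and the short half-life of their mRNA is set by RNA-binding proteins such as Zfp36 and Zc3h12a.

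On GRCm38, 6 of the 10 genes lie on chromosome 11. Ccl3 (ENSMUSG00000000982, bases 83647844 to 83649355, minus strand) and Ccl4 (ENSMUSG00000018930, 83662584 to 83664683, plus strand) are neighbours in opposite orientation. Ccl9 (ENSMUSG00000019122, 83572919 to 83578636) and Ccl6 (ENSMUSG00000018927, 83587882 to 83593087) follow each other on the minus strand, with Ccl5 (ENSMUSG00000035042, 83525778 to 83530518, minus strand) in the same stretch and Cxcl16 (ENSMUSG00000018920, 70453983 to 70459984, minus strand) elsewhere on the chromosome. On chromosome 5, Cxcl3 (ENSMUSG00000029379, 90786103 to 90789600), Cxcl1 (ENSMUSG00000029380, 90891241 to 90893115) and Cxcl2 (ENSMUSG00000058427, 90903871 to 90905938) lie on the plus strand and Cxcl9 (ENSMUSG00000029417, 92321347 to 92328079) on the minus strand. Counts were summed over the exons of each gene. The antisense transcript E230016K23Rik overlaps the Ccl6 gene without sharing exon bases, and Zmynd15 shares 552 exon bases with Cxcl16 on the other strand. The strand setting of the counting is not given in the sources used here, so reads of such a pair cannot be told apart by strand.

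The bases upstream of the 3 CXCR2 ligand genes and of Ccl6 are shown because Cxcl2 and Ccl6 were the most abundant of the 10 RNAs and varied in different ways among the Cxcr2-/- mice. They come from the RefSeq promoter table for GRCm38.p6, which holds 7 of the 10 genes (Ccl3, Ccl6, Ccl9, Cxcl1, Cxcl2, Cxcl3 and Cxcl9), and bases inside the GENCODE gene were left out. Each runs 5′ to 3′ on the strand of its gene, at chr5:90891095-90891240 for Cxcl1, chr5:90903749-90903870 for Cxcl2, chr5:90785951-90786100 for Cxcl3 and chr11:83593088-83593237 (minus strand) for Ccl6. In the 3 Cxcl genes capitals mark GGGAATTTCCC, the longest run of letters that their 250 upstream bases have in common, which has the form of an NF-kB site, and in Ccl6 they mark the ETS letters AGGAAGT, which stand there on the other strand.
Cxcl1: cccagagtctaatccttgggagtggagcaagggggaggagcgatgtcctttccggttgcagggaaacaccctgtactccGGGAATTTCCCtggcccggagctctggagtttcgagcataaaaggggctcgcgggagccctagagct
Cxcl2: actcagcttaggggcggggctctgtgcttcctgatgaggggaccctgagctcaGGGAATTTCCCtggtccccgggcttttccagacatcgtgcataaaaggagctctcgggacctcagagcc
Cxcl3: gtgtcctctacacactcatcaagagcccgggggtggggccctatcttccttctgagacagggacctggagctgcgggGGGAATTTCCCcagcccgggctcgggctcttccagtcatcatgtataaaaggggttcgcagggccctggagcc
Ccl6: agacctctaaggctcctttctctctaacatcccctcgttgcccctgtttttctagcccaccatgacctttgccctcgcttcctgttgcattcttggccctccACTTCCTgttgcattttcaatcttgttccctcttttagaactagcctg
The shared run of 11 letters starts 71 bases before the RefSeq start of Cxcl1, 97 before that of Cxcl2 and 73 before that of Cxcl3, and it is in none of the other 4 promoters of the set. On either strand it occurs in 11 of 27025 mouse promoters of that length (0.0407%). Each of the 3 genes also carries the TATA-like letters ATAAAAG between that run and the start, at 34, 57 and 29 bases, and Ccl9 carries them at 91 and 226 bases, against 5.14% of all promoters. The ETS letters of Ccl6 begin 48 bases before the start and occur in 7.80% of promoters. The AP-1 letters TGANTCA were found in Ccl9 alone (6.87% of promoters), and TTCNNNGAA, the form of a STAT site, in none of the 7 (7.18% of promoters). The letters were chosen with the sequences in view.

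Counts on genes ranged from 34220182 to 46233555 in the WT and from 37549648 to 43789253 in the Cxcr2-/- libraries. Of the genes with 1 to 20 counts in a library, 64.8% to 70.1% had an even count, so counts may stand for fewer fragments than they show. Genes with more counts were not checked for this. With all counts halved, 7 ligands were again lower, where 3576 of all genes tested were lower, against 3526 with full counts. Cxcr2 itself had 1956 ± 221 CPM in WT against 17.1 ± 3.46 CPM in Cxcr2-/- neutrophils (SD, n = 4 each), in the direction of each library's label. The summed level of 10 neutrophil markers was 46797 to 63862 CPM in WT and 106193 to 138417 CPM in Cxcr2-/- libraries, and that of 8 precursor markers 341 to 387 and 1071 to 1287 CPM. The part of these shifts in the levels of the ligands was not tested. Among the Cxcr2-/- libraries, replicates 3 and 4 stood apart from replicates 1 and 2 in several of the ligands and in the granule genes Mpo and Elane. Mpo was at 19.1, 20.2, 81.2 and 145.8 CPM and Elane at 12.0, 14.5, 55.5 and 93.2 CPM in Cxcr2-/- replicates 1 to 4. The sum of all 8 precursor markers differed far less among them, at 1071, 1104, 1170 and 1287 CPM in the same order. Prtn3 (20.4, 17.5, 63.5 and 92.1 CPM), Ctsg and Ms4a3 were also higher in replicates 3 and 4. Cebpe was lower in that pair (252, 187, 165 and 138 CPM). Mki67 (545, 600, 572 and 557 CPM) and Top2a (203, 245, 197 and 205 CPM) did not split by pair.

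The RNA of 7 of the 10 ligands was lower in spleen neutrophils of Cxcr2-/- mice than of WT mice (Ccl3, Ccl4, Ccl6, Cxcl2, Cxcl3, Cxcl9 and Cxcl16), none was higher, also at an unadjusted p under 0.05 or in DESeq2, and Ccl5, Ccl9 and Cxcl1 passed in neither direction. The number lower was 4 without WT replicate 1 or without WT replicate 2, where Cxcl2, Cxcl9 and Cxcl16 were not called, and 5 or 6 without any one of the other libraries. Ccl3 and Ccl6 fell to 0.151 and 0.222 of their WT mean, Cxcl2 and Cxcl3 to 0.240 and 0.206, and Ccl9 stood at 0.988 of it. The counts were tested with the quasi-likelihood test of edgeR, and a gene passed at a Benjamini-Hochberg adjusted p under 0.05 over all 16778 genes tested. Of these genes 44.7% passed, 21.0% as lower and 23.7% as higher, or 4391 lower and 3076 higher genes with upper-quartile normalization in place of 3526 and 3969. Levels are given as CPM, the counts scaled by the TMM-normalized size of each library. Since a library is the RNA of a pool of sorted cells, fewer cells making a ligand and less RNA per cell cannot be told apart.

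In 5 of the 10 genes (Ccl3, Ccl4, Ccl6, Cxcl2 and Cxcl3) every Cxcr2-/- library was below every WT library, as in 19.1% of all genes tested, and in none were the groups apart in the other direction (22.5% of genes). The median log2 fold change, Cxcr2-/- over WT, was -1.75 for the 10 ligands and 0.01 for all genes tested. Cxcl1, Cxcl3 and Cxcl9 reached the level that the filter on low counts asks for in 4 WT and 2 Cxcr2-/- libraries, so they entered the test through the WT group. Of the other 7 genes, 5 were lower, and the groups did not overlap in Ccl3, Ccl4, Ccl6 and Cxcl2. DESeq2 called 6 of the 10 lower, all but Cxcl2 of those above, where it called 18.2% of the genes it tested lower and 18.6% higher. With a further threshold of 1.5-fold, all 7 passed in edgeR, where 15.7% of genes tested passed in each direction.

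**Figure D1:**
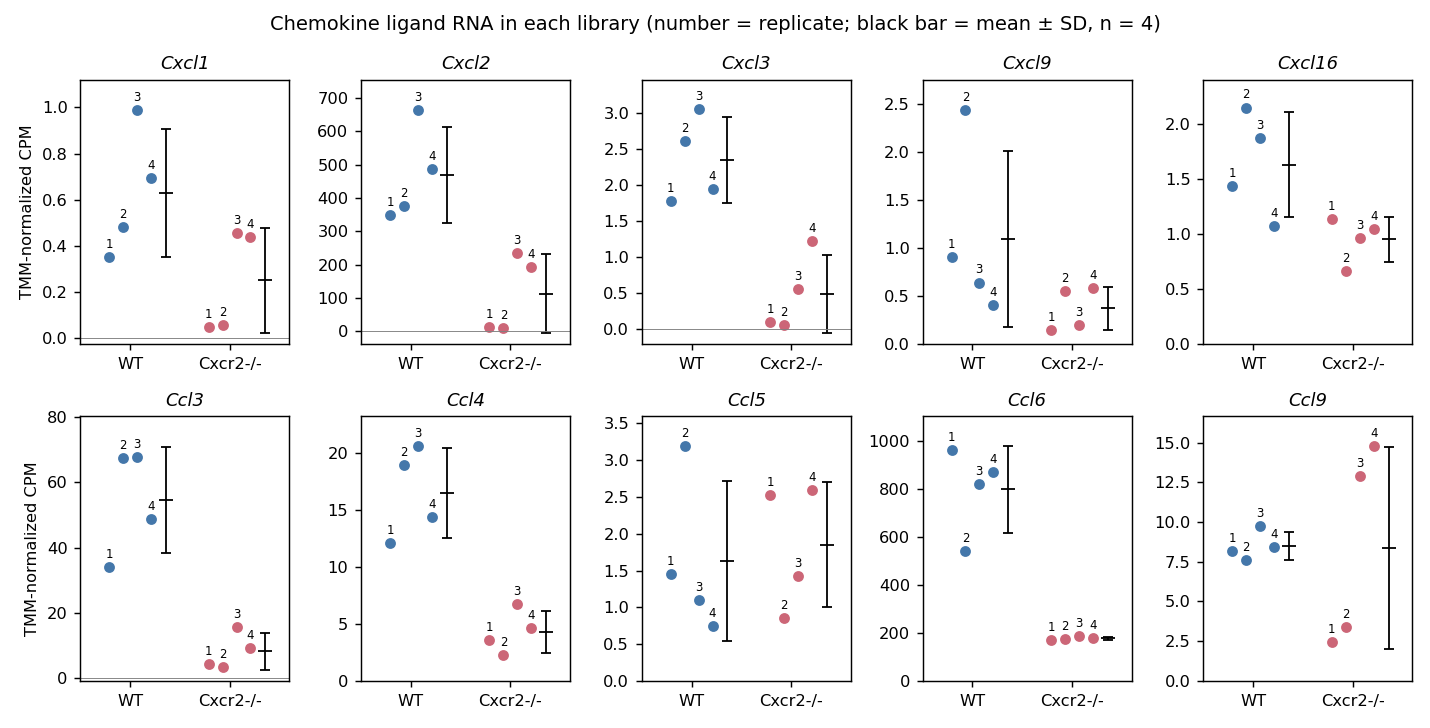
RNA level of each of the 10 ligands in TMM-normalized CPM (linear vertical axes, a separate scale for each gene) in the 4 WT (blue) and 4 Cxcr2-/- (red) libraries, with replicate numbers and with black bars for the mean ± SD (n = 4). Ccl6 in Cxcr2-/- libraries lies between 169.8 and 185 CPM, while Cxcl2 there runs from 9.91 to 236 CPM.

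Among the CXCR2 ligands, Cxcl2, the neutrophil chemoattractant that stimulated neutrophils themselves release, was by far the most abundant. It was at 349, 377, 666 and 488 CPM in WT replicates 1 to 4 and at 12.7, 9.91, 236 and 193 CPM in Cxcr2-/- replicates 1 to 4. The Cxcr2-/- libraries lay below all WT libraries but fell into a low and a high pair, and the high pair was nearer to the WT range on the log scale than to the low pair. Cxcl2 fell by 2.06 on the log2 scale (SE 0.78, 95% interval of the log2 fold change -3.76 to -0.36, edgeR adjusted p = 0.0484). The call was close to the threshold, with an adjusted p of 0.0895 in DESeq2 and of 0.0218 to 0.105 in edgeR fits that left out a library. Its log2 fold change was -1.68 and -1.67 without Cxcr2-/- replicate 1 or 2, and -2.70 and -2.46 without replicate 3 or 4.

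Cxcl3 was scarce, at 1.77, 2.61, 3.05 and 1.94 CPM in WT and 0.101, 0.0553, 0.559 and 1.22 CPM in Cxcr2-/- libraries, the last group from 4, 2, 22 and 50 counts. Here too replicates 1 and 2 held the lowest values, and the groups did not overlap. The edgeR log2 fold change was -2.25 (SE 0.61, adjusted p = 0.00929) and stayed between -3.27 and -1.89 with any library left out. Cxcl1, a CXCR2 ligand also made by stromal and endothelial cells, was scarcer still, with 16, 24, 37 and 24 counts in WT and 2, 2, 18 and 18 counts in Cxcr2-/- libraries. That corresponds to 0.354, 0.482, 0.989 and 0.694 CPM in WT and 0.0506, 0.0553, 0.457 and 0.438 CPM in Cxcr2-/- neutrophils, and the upper Cxcr2-/- pair overlapped the lowest WT library. For Cxcl1 edgeR gave a log2 fold change of -1.29 (SE 0.62, 95% interval -2.64 to 0.048, adjusted p = 0.109), and it was not called. Summed over Cxcl1, Cxcl2 and Cxcl3, the CXCR2 ligands reached 472.9 ± 144 CPM in WT against 113 ± 119 CPM in Cxcr2-/- neutrophils (SD, n = 4), nearly all of it Cxcl2.

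Ccl3 and Ccl4, the macrophage inflammatory proteins that draw monocytes and T cells, were lower in every Cxcr2-/- library than in any WT library. Ccl3 was at 34.02, 67.4, 67.8 and 48.7 CPM in WT and 4.35, 3.54, 15.8 and 9.28 CPM in Cxcr2-/- replicates 1 to 4. Ccl3 fell by 2.72 on the log2 scale (SE 0.40, edgeR adjusted p = 1.38e-04). Ccl4 was at 12.1, 18.9, 20.6 and 14.3 CPM in WT and 3.59, 2.27, 6.71 and 4.62 CPM in Cxcr2-/- libraries. In both genes WT replicate 1 was the lowest WT library and Cxcr2-/- replicates 3 and 4 were the highest of their group. Ccl4 fell by 1.94 on the log2 scale (SE 0.28, edgeR adjusted p = 1.20e-04), and both calls held in all 17 alternative fits with edgeR and DESeq2, with adjusted p of at most 5.61e-04 for Ccl3 and 5.23e-04 for Ccl4.

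Ccl6 and Ccl9, the rodent CCR1 ligands, behaved differently although they are neighbours on the chromosome. Ccl6 was at 959, 539.8, 820.4 and 871 CPM in WT and 169.8, 174, 185 and 179 CPM in Cxcr2-/- replicates 1 to 4. The WT libraries spanned a range of 1.78-fold, led by replicate 1 and closed by replicate 2, whereas the 4 Cxcr2-/- libraries agreed within 1.09-fold. Ccl6 fell by 2.17 on the log2 scale, with the smallest SE of the 10 ligands, 0.16, and the lowest edgeR adjusted p, 5.77e-07. The log2 fold change stayed between -2.34 and -2.07 with any library left out. The antisense E230016K23Rik had a mean of 423 counts per library in WT and 94.0 in Cxcr2-/-, against 26863 to 43399 counts of Ccl6 in the WT and 6293 to 7365 in the Cxcr2-/- libraries.

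Ccl9 was at 8.18, 7.60, 9.73 and 8.45 CPM in WT and 2.48, 3.38, 12.9 and 14.8 CPM in Cxcr2-/- libraries. Cxcr2-/- replicates 1 and 2 were below all WT libraries and replicates 3 and 4 above all of them, so that the group means, 8.49 ± 0.90 and 8.39 ± 6.36 CPM, hid a wide spread. In edgeR the log2 fold change was -0.014 with a 95% interval from -0.98 to 0.95 (adjusted p = 0.982). Without Cxcr2-/- replicate 1 or 2 it was 0.30 or 0.25, and without replicate 3 or 4 it was -0.30 or -0.45.

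Ccl5, Cxcl9 and Cxcl16, ligands known mainly from T cells, NK cells, macrophages and dendritic cells, were near the lower limit of the measurement in both groups. Ccl5, also known as RANTES, was at 1.46, 3.20, 1.10 and 0.752 CPM in WT and 2.53, 0.858, 1.42 and 2.60 CPM in Cxcr2-/- libraries. The groups overlapped throughout, and the log2 fold change of 0.18 had a 95% interval from -0.78 to 1.13 (edgeR adjusted p = 0.773). Cxcl9 was at 0.906, 2.43, 0.641 and 0.405 CPM in WT and 0.152, 0.553, 0.203 and 0.583 CPM in Cxcr2-/- libraries, with WT replicate 2 far above the rest and the other libraries overlapping. Its log2 fold change of -1.57 (SE 0.58, edgeR adjusted p = 0.0425) became -0.83 without WT replicate 2 (adjusted p = 0.234).

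Cxcl16 was at 1.44, 2.15, 1.87 and 1.07 CPM in WT and 1.14, 0.664, 0.966 and 1.05 CPM in Cxcr2-/- libraries. The lowest WT library, replicate 4, lay within the Cxcr2-/- range. A log2 fold change of -0.78 (SE 0.29, edgeR adjusted p = 0.0420) was the smallest among the called ligands, and the adjusted p was 0.05 or more in 9 of 17 alternative fits. WT replicate 2 held the highest value of Ccl5, Cxcl9 and Cxcl16 and also the highest sum of 8 macrophage markers, 80.6 CPM against 30.6 to 42.8 CPM in the other WT and 14.8 to 33.6 CPM in the Cxcr2-/- libraries. The 10 T and NK cell markers summed to 101 to 144 CPM over all libraries, of which Cd3d alone made up 80.1 to 136 CPM. The other 9, set apart after their values were seen, summed to 22.9 CPM in WT replicate 2 and 3.73 to 13.8 CPM in the other 7 libraries. With the mean level of T, NK, B, macrophage, monocyte and dendritic cell markers as a covariate, the log2 fold changes were -0.71 for Cxcl9 (adjusted p = 0.408), -0.44 for Cxcl16 (adjusted p = 0.281) and 1.01 for Ccl5 (adjusted p = 0.0605) in edgeR. The mean of the markers of these cells kept Cd3d, Csf1r and Ly6c2, which are set apart in other sums. The part of such cells in the levels of these 3 ligands was not tested further. Of those lists, no marker was at 0 in all libraries, and Cd3e, which marks T cells, was at most at 0.563 CPM.

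**Figure D2:**
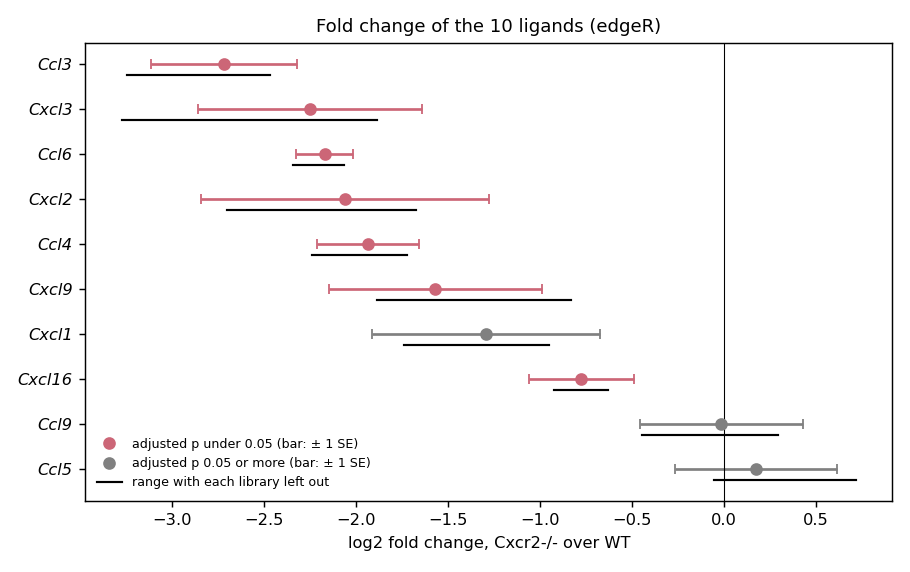
Log2 fold change of each ligand, Cxcr2-/- over WT, from the edgeR fit over all genes, with bars of ± 1 SE (red, adjusted p under 0.05; grey, 0.05 or more) and, as a black line below each point, the range when each of the 8 libraries was left out in turn. Ccl6 has the narrowest error (0.16) and Cxcl2 the widest (0.78), while Ccl9 and Ccl5 lie across 0.

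Levels of different ligands were compared per kilobase of exon, using all exons of each gene in GENCODE M21. In WT neutrophils the order was Ccl6 at 444 ± 101, Cxcl2 at 227 ± 69.5, Ccl3 at 71.1 ± 21.3 and Ccl4 at 25.0 ± 5.95 CPM per kilobase (SD, n = 4). The ranges of these 4 did not overlap except those of Ccl6 and Cxcl2. The other 6 followed far below, with Ccl9 at 2.79 ± 0.296 and Ccl5 at 1.69 ± 1.13 CPM per kilobase, then Cxcl3 at 0.669, Cxcl16 at 0.540, Cxcl9 at 0.363 and Cxcl1 at 0.336 CPM per kilobase, neighbours whose libraries overlapped. In Cxcr2-/- neutrophils Ccl6 still led at 98.6 ± 3.72 CPM per kilobase, followed by Cxcl2 at 54.5 ± 57.3, Ccl3 at 10.8 ± 7.37 and Ccl4 at 6.51 ± 2.84 CPM per kilobase. There Cxcl2 overlapped Ccl6, Ccl3 and Ccl4, since its 4 libraries spanned 4.79 to 114 CPM per kilobase.

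**Figure D3:**
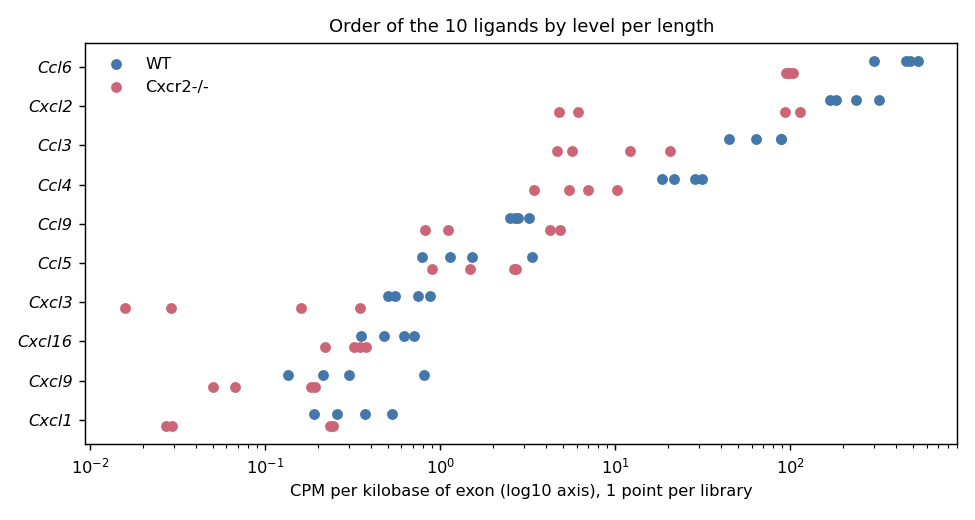
Level of each ligand per kilobase of exon in each library (log10 horizontal axis, 1 point per library, WT in blue and Cxcr2-/- in red), with genes ordered by the WT mean. Ccl6, Cxcl2, Ccl3 and Ccl4 lead in both groups, and the Cxcr2-/- points of Cxcl2 and Cxcl3 are the most scattered.

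Ccl6 and Cxcl2 together made up 79.4% to 91.1% of the summed RNA of the 10 ligands per kilobase in every library, but in different proportions from mouse to mouse. The 10 ligands summed to 772, 608, 905 and 812 CPM per kilobase in WT and to 116, 112, 254 and 221 CPM per kilobase in Cxcr2-/- replicates 1 to 4. Ccl6 took 69.3%, 49.5%, 50.5% and 59.8% of that sum in WT and 81.7%, 86.4%, 40.6% and 45.2% in Cxcr2-/- libraries. Cxcl2 took 21.9% to 35.6% in WT, 5.29% and 4.27% in Cxcr2-/- replicates 1 and 2, and 44.8% and 42.2% in replicates 3 and 4. Ccl6 thus led in all WT libraries and far outweighed Cxcl2 in Cxcr2-/- replicates 1 and 2, while both stood close together in the other two.

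Ratios of neighbouring or related ligands within a library do not depend on how libraries are scaled, and 4 pairs were compared by an exact permutation test (two-sided, 4 libraries against 4, smallest possible p 0.0286). Ccl3 stood above Ccl4 by 1.49 to 1.83 on the log2 scale in WT and by 0.28 to 1.23 in Cxcr2-/- libraries. The mean log2 ratio of Ccl3 to Ccl4 was 1.70 ± 0.15 in WT and 0.79 ± 0.42 in Cxcr2-/- neutrophils, a difference of -0.91 (exact permutation p = 0.0286, Benjamini-Hochberg adjusted over the 4 pairs 0.0381). Ccl3 RNA therefore fell further than that of its neighbour Ccl4. The mean log2 ratio of Ccl6 to Ccl9 was 6.53 ± 0.32 in WT and 4.80 ± 1.27 in Cxcr2-/- neutrophils, with no overlap (difference -1.72, exact permutation p = 0.0286, adjusted 0.0381). In counts, uncorrected for length, Ccl6 exceeded Ccl9 by 117, 71.0, 84.2 and 103 times in WT and by 68.2, 51.4, 14.3 and 12.1 times in Cxcr2-/- replicates 1 to 4.

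The log2 ratio of Cxcl1 to Cxcl2 was -9.57 ± 0.24 in WT and -8.13 ± 0.87 in Cxcr2-/- neutrophils (difference 1.44, exact permutation p = 0.0286, adjusted 0.0381). This ratio rests on 2 counts of Cxcl1 in each of Cxcr2-/- replicates 1 and 2, and Cxcl1 entered the test through the WT group, so no difference between the 2 genes is read from it. The log2 ratio of Cxcl2 to Cxcl3 was 7.63 ± 0.34 in WT and 7.49 ± 0.83 in Cxcr2-/- neutrophils, and its libraries overlapped (difference -0.14, exact permutation p = 0.80, adjusted 0.80). Cxcl3 likewise entered the test through the WT group, with 4 and 2 counts in Cxcr2-/- replicates 1 and 2. No likeness of Cxcl2 and Cxcl3 is read from their ratio. With any library left out, the difference was -1.06 to -0.74 for Ccl3 to Ccl4 and -2.15 to -1.32 for Ccl6 to Ccl9, where 3 libraries against 4 cannot give an exact permutation p below 0.0571.

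**Figure D4:**
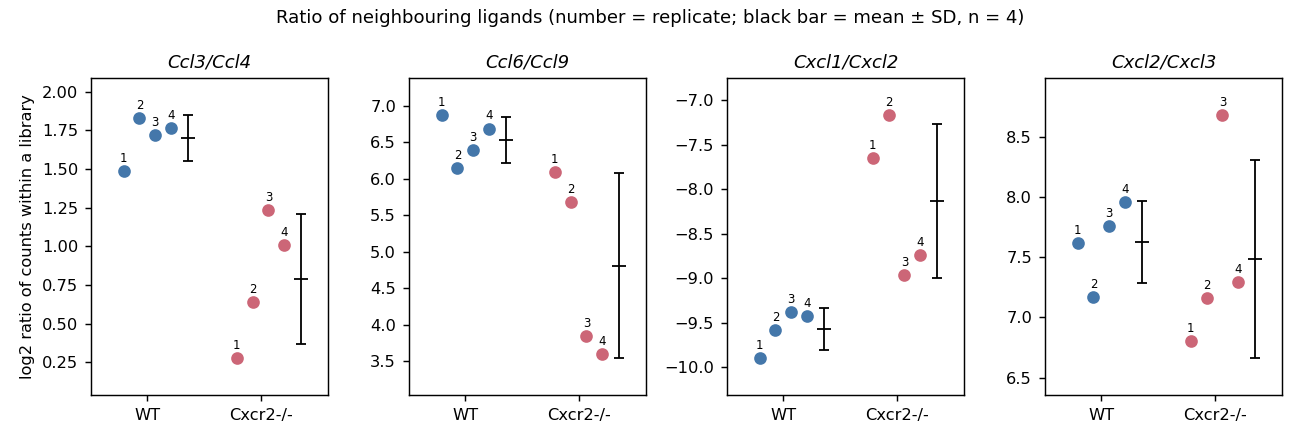
Log2 ratio of the counts of 2 ligands within each library for 4 pairs, WT in blue and Cxcr2-/- in red, with replicate numbers and black bars of mean ± SD (n = 4); each panel has its own vertical axis. The groups do not overlap for Ccl3/Ccl4, Ccl6/Ccl9 and Cxcl1/Cxcl2, and overlap for Cxcl2/Cxcl3.

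The ligands also differed in how far the Cxcr2-/- mice varied among themselves. Among 7502 genes whose average log2 CPM was 3 or more, the highest Cxcr2-/- library exceeded the lowest by 1.28-fold in the median gene. For Cxcl2 this spread was 23.8-fold, the widest of these 7502 genes, where the WT libraries spanned 1.91-fold. Ccl9 spanned 5.97-fold (12 genes were wider), Ccl3 4.46-fold (21 wider) and Ccl4 2.96-fold (81 wider). Ccl6, at the other end, spanned 1.09-fold, and 376 genes were narrower. In each of Cxcl2, Cxcl1, Cxcl3, Ccl3, Ccl4 and Ccl9 the higher pair was Cxcr2-/- replicates 3 and 4. The same libraries were the higher pair for Mpo, Elane, Prtn3, Ctsg and Ms4a3, but not for Cebpe, Mki67 and Top2a, as given above. They were also the higher pair for the NF-kB inhibitor Nfkbia (197, 163, 443 and 386 CPM). For Tnfaip3, a brake on NF-kB, they were likewise higher (67.4, 55.0, 162 and 162 CPM). Other regulators of these ligands were mixed. Il1b and Nfkbiz were also higher in that pair, but Nfkb1 was lower in it (260, 235, 213 and 206 CPM). Tnf (56.4, 48.7, 51.9 and 39.3 CPM) and Bcl3 (157, 104, 116 and 88.0 CPM) did not split by pair. Sums of markers of other cells were also higher in that pair for 8 B cell (19.8, 16.4, 32.2 and 38.2 CPM), 8 macrophage (18.4, 14.8, 26.1 and 33.6 CPM) and 8 eosinophil, basophil and mast cell markers (35.4, 36.2, 47.9 and 57.5 CPM). The 8 monocyte and dendritic cell markers summed to 876, 835, 929.6 and 861 CPM, and 6 of them, set apart from Csf1r and Ly6c2 after values were seen, to 10.6, 11.5, 21.1 and 20.4 CPM. The 10 T and NK cell markers (144, 121, 105 and 101 CPM) and 6 platelet markers (74.6, 68.5, 44.1 and 51.8 CPM) were lower in the same pair, whereas the 9 T and NK cell markers other than Cd3d summed to 8.82, 5.56, 9.61 and 13.8 CPM. The part of these in the spread of the ligands was not tested.

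**Figure D5:**
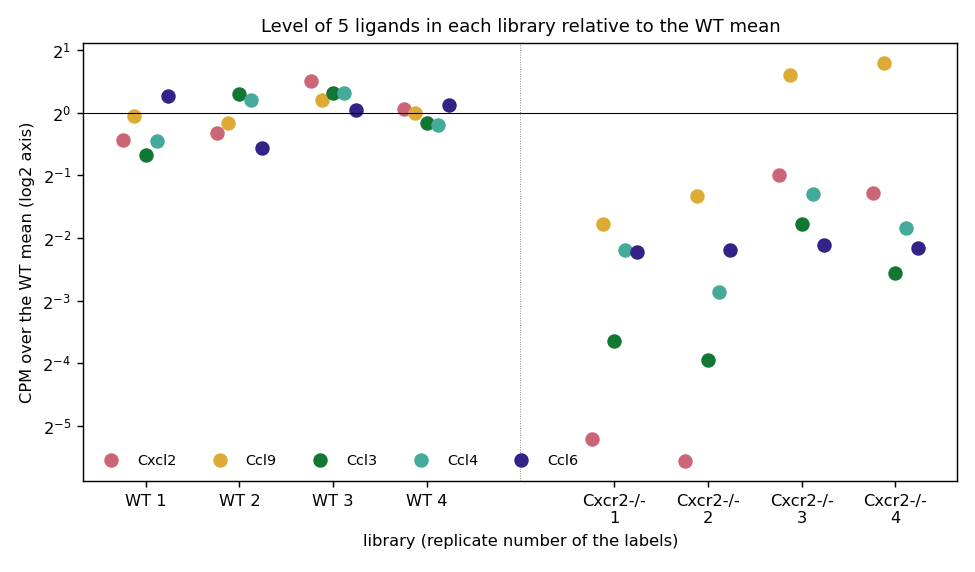
CPM of Cxcl2, Ccl9, Ccl3, Ccl4 and Ccl6 in each library divided by the mean of the 4 WT libraries of that gene (log2 vertical axis; the line marks the WT mean; points of a library are set side by side). In Cxcr2-/- replicates 1 and 2 Cxcl2 is the lowest of the 5, in replicates 3 and 4 Ccl9 is above the WT mean, and Ccl6 stays at the same depth in all 4.

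The genes whose profile over the 8 libraries was most like that of a ligand were sought among 7477 genes, by the root mean square distance of centred log2 (CPM + 1) values. Centring was over all 8 libraries, so genes with a similar step between the groups come close, and shared regulation was not tested. Nearest to Ccl6 were Rufy4 (distance 0.16 in log2 units), Jaml (0.17), an adhesion molecule of neutrophil migration, Abhd15 (0.18), the polycomb gene Cbx7 (0.21) and 5430425K12Rik (0.22). The log2 fold changes of these 5 genes were -1.97 to -2.39, against -2.17 for Ccl6. Rufy4 lies on chromosome 1, as Cxcr2 does, at bases 74125541 to 74148223. Any effect of the deleted allele on Rufy4 was not tested. Nearest to Ccl3 were the immediate early gene Nr4a1 (0.34), Hcar2 (0.34), Tgif1 (0.36), Egr3 (0.38) and Btbd19 (0.39). For Cxcl2 the distances were larger, with the chemerin-binding receptor Ccrl2 at 0.64, then Egr1 (0.92), Egr3 (0.96), the prostaglandin synthase Ptgs2 (0.98) and Atf3 (1.02). The distance is not scaled and grows with the spread of a gene, which was wide for Cxcl2. Larger values therefore do not show that its pattern was unlike that of other genes. Ccrl2, at 39.8, 26.3, 182 and 166 CPM in Cxcr2-/- replicates 1 to 4, had the same higher pair of libraries as Cxcl2.

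Of 28 other chemokine ligand genes, 9 had no count in any library and 4 were abundant enough to test (Ccl2, Ccl25, Ccl27a and Cxcl10). None of the 4 passed in edgeR, 1 had an unadjusted p under 0.05, and DESeq2 called 2 of the list lower, Cxcl10 and Cxcl13. Cxcl10, an interferon-induced CXCR3 ligand like Cxcl9, had 3.30 ± 1.37 CPM in WT against 1.97 ± 0.704 CPM in Cxcr2-/- neutrophils (edgeR log2 fold change -0.75, adjusted p = 0.0708). The platelet and stromal CXCR2 ligands Ppbp and Cxcl5 did not exceed 0.152 and 0.0534 CPM in any library.

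Of the 9 receptor genes for the 10 ligands, 7 were tested. In edgeR 4 were lower (21.0% of all genes tested) and none higher (23.7% of all genes). At an unadjusted p under 0.05, 1 was higher, and none was in DESeq2, which also called Ackr1 lower. Cxcr2 is among the lower genes because it was deleted in these mice, so its call is no result about receptors. Besides Cxcr2 these were Ccr1, the receptor of Ccl3, Ccl6 and Ccl9, with 908 ± 68.2 CPM in WT against 532 ± 39.6 CPM in Cxcr2-/- neutrophils (edgeR log2 fold change -0.77, adjusted p = 6.42e-05), Ccr3 (-1.15, adjusted p = 0.00464) and Cxcr3 (-1.71, adjusted p = 6.49e-05). Cxcr1, the closest relative of Cxcr2, had 14.8 ± 2.03 CPM in WT against 18.8 ± 2.74 CPM in Cxcr2-/- neutrophils (a log2 difference of 0.35, edgeR adjusted p = 0.0522). Cxcr6, the receptor of Cxcl16, was at most at 2.06 CPM in any library and not called (edgeR adjusted p = 0.472).

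Of 21 tested genes that induce or restrain these ligands, 11 were lower (21.0% of all genes tested) and 5 higher (23.7% of all genes, and 3 of the 21 with upper-quartile normalization) in edgeR, with a median log2 fold change of -0.43. The lower genes were led by Zfp36l2 (log2 fold change -1.18, adjusted p = 2.57e-06), Zc3h12a (-1.07, adjusted p = 1.46e-05), an RNase that cleaves cytokine mRNA, and Nfkbiz (-1.58, adjusted p = 3.45e-05), a nuclear NF-kB partner. Il1b, which induces Cxcl1 and Cxcl2, was lower too (-1.44, adjusted p = 1.46e-04), whereas Tnf was higher (0.50, adjusted p = 0.00831). The higher genes were led by Nfkbib (0.89, adjusted p = 4.79e-05), Bcl3 (0.69, adjusted p = 0.00363) and Tnf. Of 8 proteases known to shed or trim chemokines, 2 were lower (21.0% of all genes tested) and 6 higher (23.7% of all genes) in edgeR. The lower genes in edgeR were Adam17 (log2 fold change -0.37, adjusted p = 0.00267) and Dpp4 (-1.26, adjusted p = 0.0392). Among the 6 higher were Prtn3 (4.86, adjusted p = 3.69e-05), Elane (5.15, adjusted p = 7.25e-05), Ctsg (5.24, adjusted p = 3.28e-04) and Adam10 (0.31, adjusted p = 0.0166), the last known for shedding Cxcl16. Prtn3, Elane and Ctsg are also in the list of 8 precursor markers, all of which were higher.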

How the data were processed

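RNA of spleen neutrophils from 4 WT and 4 Cxcr2-/- mice was depleted of ribosomal RNA, made into directional libraries and sequenced from both ends. The authors checked the reads with FastQC, trimmed them, aligned them to mm10 with STAR and deposited whole-number HTSeq counts per gene, without normalization. Tool versions, strand setting and counting annotation are not given in the sources used here. Symbols and positions came from GENCODE M21, which has 52081 of the 55414 identifiers (1.43% of counts lie on the rest). Rows of HTSeq totals were left out of library sizes.

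Counts were compared in R 4.3.3 with edgeR 4.0.16 (glmQLFTest, TMM, filterByExpr, Benjamini-Hochberg adjustment), without covariates, after the steps were tested on simulated data. Common variation between mice was 0.202 as a biological coefficient of variation. Alternatives were DESeq2 1.42.0 (the study's tool), other scalings and filters, the replicate number as a block, a non-neutrophil marker covariate, each library left out, and, chosen after seeing the data, halved counts. Replicate numbers name different mice (correlations of deviations from the group means -0.31 to 0.24), and no replicates agreed within sampling noise (chi-square per gene 24.2 to 97.6). Within-library ratios used counts + 0.5.

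The members, lists and tests were chosen with earlier results of these data known. Named genes are the 10 ligands, tested genes of the 4 other gene lists (first the 3 lowest adjusted p in each direction), defining markers, and for Ccl6, Ccl3 and Cxcl2 the 5 genes of nearest profile (average log2 CPM 3 or more). Cxcl5, Cxcl13 and Ppbp were named after their values were seen. Of the marker lists, 9 of 10 neutrophil markers were higher and 1 lower, 8 of 8 precursor markers higher, 1 of 8 tested T and NK cell markers higher and 2 lower, 6 of 8 B cell markers lower, 1 of 8 macrophage markers higher and 1 lower, 1 of 7 monocyte and dendritic cell markers higher and 3 lower, 3 of 4 eosinophil, basophil and mast cell markers higher and 1 lower, and 1 of 3 platelet markers lower. The level of 1 gene of the receptor list is not reported here.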

Additional observations from a re-analysis of the deposited data

How the results depend on the processing

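Ccl3, Ccl4, Ccl6 and Cxcl3 kept direction and call in every alternative that could be fitted. Cxcl1, Cxcl3 and Cxcl9 were not tested with at least 10 counts required in every library, nor Cxcl1 with halved counts. The number of ligands lower was 7, and 4 to 6 with a library left out, with 4 without WT replicate 1 (Cxcl2, Cxcl9 and Cxcl16 lost) and 4 without WT replicate 2 (the same 3 lost). It was 7 with the replicate block, in which Cxcl1 was called (edgeR log2 fold change -1.60, adjusted p = 0.0309), Cxcl16 was not (adjusted p = 0.0965), Cxcl2 had -3.16, and 1 protease was lower in place of 2. The mice of a number are different animals, and the deviations of equal numbers were not correlated throughout (0.15, -0.19, 0.24 and -0.31). Cxcl2 also lost its call with total counts (adjusted p = 0.0548) and in DESeq2 (0.0895), Cxcl9 and Cxcl16 with the marker covariate, and Cxcl16 without a filter (0.0515). Directions reversed, below any call, for Ccl5 without WT replicate 4 (-0.053), Cxcr2-/- replicate 1 (-0.0044) or 4 (-0.048; range -0.053 to 0.72), for Ccl9 with the marker covariate (0.27) and without WT replicate 3 (0.047), Cxcr2-/- replicate 1 (0.30) or 2 (0.25; range -0.45 to 0.30), and for the Cxcl2 to Cxcl3 ratio without Cxcr2-/- replicate 1 (0.086; range -0.54 to 0.086). Other ligands lower were 0, but 2 in DESeq2, 2 without a filter, 1 with upper-quartile normalization and 0 to 1 with a library left out. Receptors higher were 0, but 1 with the marker covariate and 0 to 1 with a library left out. Regulators higher were 5, but 3 with upper-quartile normalization and 3 with the covariate. Proteases lower were 2, but 1 in DESeq2, 1 with the covariate and 1 to 2 with a library left out. The median log2 fold change of all genes was -0.11 with upper-quartile normalization and 0.01 with TMM. The cause of these changes was not tested. Counts were lowest for Cxcl1, Cxcl3 and Cxcl9, with 2 to 24 counts in some Cxcr2-/- libraries, which limits the precision of their levels.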
